A study of Mus musculus with 3 samples.

Results

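Regulators of cytokine mRNA lifetime, 10 genes in all, were followed in the cytosol of mouse macrophages. They were chosen by gene symbol from the 55536 genes in the quantification tables, and all of them are among the 22028 protein-coding genes. Total RNA, depleted of ribosomal RNA, was sequenced from the cytosolic fraction of bone marrow-derived macrophages, primary phagocytes grown from the marrow of C57BL/6J mice. The cells had received lipid A, the part of bacterial lipopolysaccharide sensed by the receptor Tlr4, at 100 ng/ml for 12 h. It was then washed out for 12 h, and RNA was taken at 0 min of a second stimulation. These 3 libraries, labelled biological replicates 1, 2 and 3 under the same donor identifier, make up 1 group, and no other treatment was analysed here. The values therefore describe levels in this state and no response to lipid A. No age or sex was recorded for the mice.

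The messages of many cytokines carry AU-rich elements, runs of AUUUA in the 3′ UTR, that shorten their life. The zinc-finger proteins encoded by Zfp36 (tristetraprolin), Zfp36l1 and Zfp36l2 bind these elements and recruit the CCR4-NOT deadenylase complex, whose scaffold is the product of Cnot1. Khsrp encodes another decay-promoting binder of AU-rich elements, and Elavl1 encodes HuR, which binds them and is known to stabilise messages. Zc3h12a and Zc3h12c encode Regnase endonucleases and Rc3h1 encodes Roquin, all of which act on stem-loops in inflammatory mRNAs, while Dcp2 encodes the enzyme that removes the cap. Several of these regulators are known to act on messages of their own family, so their own 3′ UTRs were read for the same elements.

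The AU-rich nonamer TTATTTATT, a sequence bound by tristetraprolin, was present in an annotated 3′ UTR of 5 of the 10 regulators. Of 9018 expressed protein-coding genes with a 3′ UTR, 8.73% held it. The 30 bases around the nonamer with the most AU-rich pentamers nearby are given for each of the 5, with the message of Tnf, a classical target of tristetraprolin, for comparison. They are DNA letters read 5′ to 3′ on the transcribed strand, and capitals mark 1 nonamer in each. The Elavl1 and Tnf windows hold further copies, some of them overlapping, that are not marked.
Zfp36: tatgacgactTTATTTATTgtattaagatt
Zfp36l1: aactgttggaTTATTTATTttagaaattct
Zfp36l2: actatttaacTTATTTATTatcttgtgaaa
Rc3h1: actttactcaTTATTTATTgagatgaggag
Elavl1: atttatttatTTATTTATTtttatttattt
Tnf: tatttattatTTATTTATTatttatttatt
On GRCm38 (mm10) these windows lie at chr7:28376950-28376979 on the minus strand for Zfp36, at chr12:80108166-80108195 on the minus strand for Zfp36l1 and at chr17:84184913-84184942 on the minus strand for Zfp36l2. The Rc3h1 window is at chr1:160970043-160970072 on the plus strand, the Elavl1 window at chr8:4285775-4285804 on the minus strand and the Tnf window at chr17:35199677-35199706 on the minus strand. All 6 are exonic and lie in the 3′ UTR. The Zfp36, Zfp36l1 and Rc3h1 windows held 1 pentamer each, which is the one inside the nonamer. The Zfp36l2 window held 2 pentamers, and the windows of Elavl1 and Tnf held 5 each.

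The Elavl1 nonamers stood only in the longer of its protein-coding transcripts. Elavl1 had 8 overlapping or separate nonamers in the 4218-base 3′ UTR of Elavl1-201 and 0 in the 1257-base 3′ UTR of its leading transcript, Elavl1-204. The other 4 regulators with a nonamer carried 1 each, and theirs lay in the 3′ UTR of the leading transcript. For comparison, 6.65% of expressed protein-coding genes had a nonamer in the leading transcript. The nonamer was more frequent in longer 3′ UTRs, at 3.14% of expressed genes below 1000 bases, 8.72% from 1000, 14.5% from 2000 and 24.6% from 4000 bases. The regulators' 3′ UTRs had a median length of 1828.5 bases, against 1171.5 bases for expressed genes, so length differs along with the motif, and its part in the count of 5 was not tested.

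Counted per 1000 bases, the pentamer ATTTA was also denser in most of the regulators. Their median was 3.12 pentamers per 1000 bases, against 1.34 in expressed protein-coding genes. Zfp36l1, at 4.90, and Elavl1, at 4.03, were highest, and Zfp36 followed at 3.88. Zc3h12a, at 3.50, and Zc3h12c, at 3.45, had no nonamer but were above the median of expressed genes as well. Khsrp and Cnot1 were lowest, at 0.609 and 1.05, with 1 pentamer each. All 10 regulators had at least 1 pentamer, as did 71.3% of expressed genes. The heptamer TATTTAT was searched too, on the transcribed strand with overlaps allowed and so within every nonamer, and it was found in 7 regulators and in 31.5% of expressed genes.

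**Figure D1:**
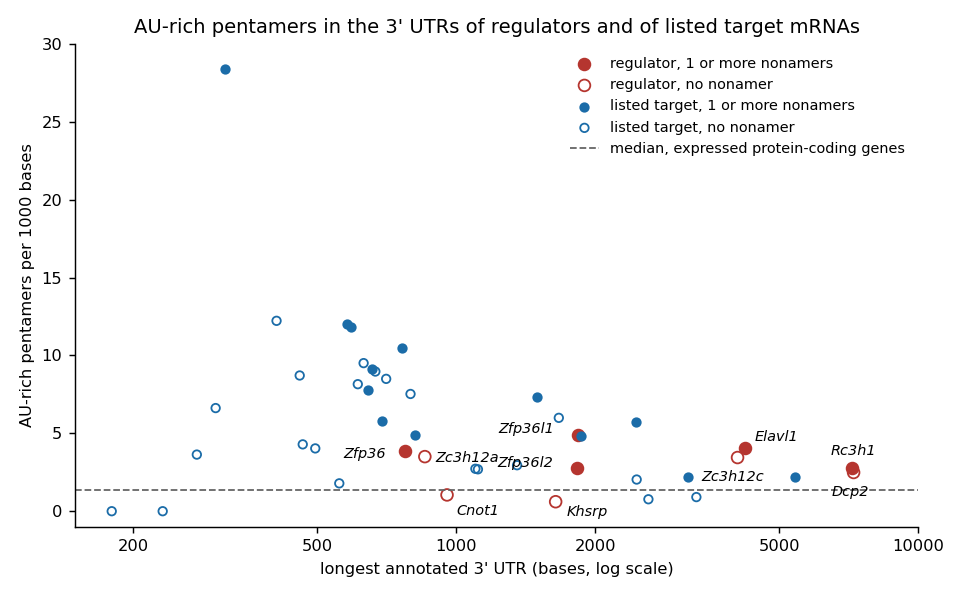
AU-rich pentamers per 1000 bases against the length of the longest annotated 3′ UTR in bases (log scale), for the 10 regulators in red and 34 listed target mRNAs in blue, filled where a nonamer is present. Khsrp and Cnot1 lie below the dashed line at 1.34, the median of expressed genes, and the other 8 regulators above it, and the densest 3′ UTRs are those of short target mRNAs.

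All 10 regulators were detected in each library, and the Zfp36 family led. Every member reached 1 TPM in every library, as did 41.2% of protein-coding genes, and 7 of the 10 reached 10 TPM in every library, as did 17.1%. At 5 TPM the numbers were 9 of 10 and 26.1%, and at 20 TPM 3 of 10 and 9.36%. TPM is transcript abundance relative to length and to the total of the library. The median over the members was 19.3, 16.9 and 19.9 TPM in replicates 1, 2 and 3, or 18.7 ± 1.59 TPM (SD, n = 3), against 8.70 ± 0.833 TPM over the 9074 protein-coding genes that reached 1 TPM in every library. In this bulk RNA, fewer cells of a type and less RNA per cell cannot be told apart.

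**Figure D2:**
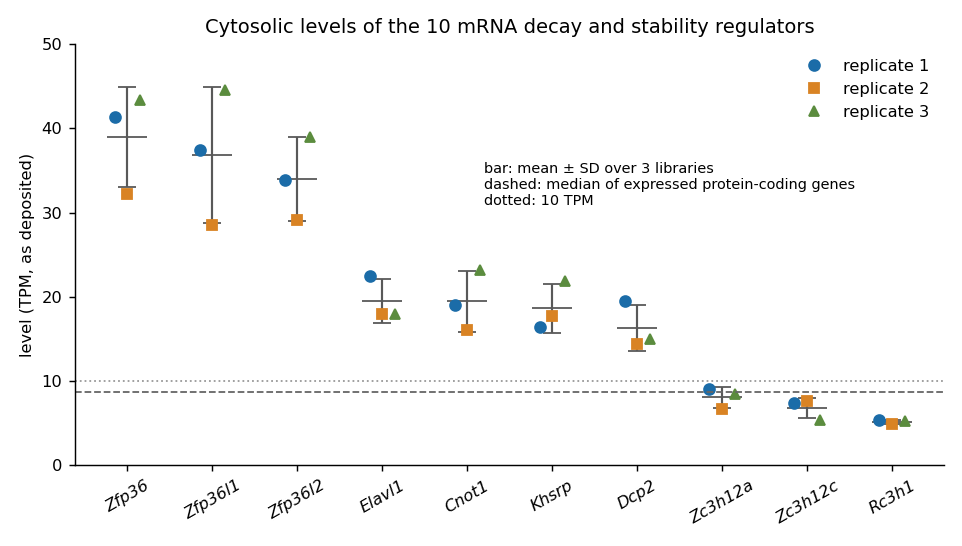
Level of each regulator in TPM (vertical axis) in the 3 libraries, with mean ± SD. The Zfp36 family lies between 28.5 and 44.6 TPM, Elavl1, Cnot1, Khsrp and Dcp2 between 14.4 and 23.2, and Zc3h12a, Zc3h12c and Rc3h1 below 10 TPM in every library.

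The 3 genes of the Zfp36 family stood at nearly the same level. Zfp36 (ENSMUSG00000044786.6; chromosome 7, 28376784 to 28380253, minus strand) had 41.3, 32.3 and 43.4 TPM in replicates 1, 2 and 3, a mean of 39.0 ± 5.92 TPM (SD, n = 3). Zfp36l1 (ENSMUSG00000021127.7; chromosome 12, 80107754 to 80113013, minus strand) had 37.5, 28.5 and 44.6 TPM, a mean of 36.9 ± 8.06 TPM. Zfp36l2 (ENSMUSG00000045817.8; chromosome 17, 84183931 to 84187947, minus strand) had 33.8, 29.1 and 39.0 TPM, a mean of 34.0 ± 4.95 TPM. Replicate 2 was lowest and replicate 3 highest for each of the 3 genes, and their ranges overlapped. Among expressed protein-coding genes the 3 means ranked at percentiles 86.6, 85.9 and 84.6.

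Within a library, the members of this family kept close ratios. The log2 ratio of Zfp36 over Zfp36l1 was 0.14, 0.18 and -0.039 in the 3 libraries, a mean of 0.093 ± 0.12 (SD). Zfp36 exceeded Zfp36l2 in 3 of 3 libraries, by a mean log2 ratio of 0.20 ± 0.078 or 1.15-fold, whereas Zfp36l1 exceeded it in 2 of 3 libraries, by 0.10 ± 0.12. Two-sided exact sign-flip tests gave p = 0.5, 0.25 and 0.5 for these 3 ratios, and 0.583 each after Benjamini-Hochberg adjustment over the 7 ratios examined. With 3 libraries 0.25 is the smallest p that test can give, so no ratio here could pass 0.05.

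Of the AU-rich element binders with opposed activities, Elavl1 and Khsrp lay together and below the Zfp36 family. Elavl1 (ENSMUSG00000040028.10; chromosome 8, 4285382 to 4325413, minus strand) had 22.5, 18.0 and 17.9 TPM, a mean of 19.5 ± 2.62 TPM (SD, n = 3). Khsrp (ENSMUSG00000007670.10; chromosome 17, 57021051 to 57031522, minus strand) had 16.4, 17.7 and 21.9 TPM, a mean of 18.6 ± 2.87 TPM. Replicate 1 was the highest for Elavl1 and the lowest for Khsrp, so the log2 ratio of Elavl1 over Khsrp changed sign between libraries, at 0.46, 0.026 and -0.29 (mean 0.066 ± 0.37, exact sign-flip p = 0.75). Without replicate 1 its mean was -0.13. Against Zfp36 the log2 ratio of Elavl1 was -0.88, -0.84 and -1.28, a mean of -0.998 ± 0.24, so the level of Elavl1 was 0.501 times that of Zfp36, lower in 3 of 3 libraries (exact sign-flip p = 0.25, adjusted p = 0.583). Elavl1 shares 204 bases with Ccl25, a chemokine gene on the opposite strand that had 1.66, 2.17 and 3.32 TPM, and the counting by strand is not stated, so reads in those bases are uncertain.

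The Regnase and Roquin genes were the lowest of the set. Zc3h12a (ENSMUSG00000042677.7; chromosome 4, 125118423 to 125127840, minus strand) had 9.12, 6.70 and 8.48 TPM, a mean of 8.10 ± 1.25 TPM (SD, n = 3). Zc3h12c (ENSMUSG00000035164.8; chromosome 9, 52111344 to 52168572, minus strand) had 7.46, 7.61 and 5.44 TPM, a mean of 6.84 ± 1.21 TPM. Zc3h12a was higher in replicates 1 and 3 and Zc3h12c in replicate 2, with a mean log2 ratio of Zc3h12a over Zc3h12c of 0.25 ± 0.41 (exact sign-flip p = 0.5, adjusted p = 0.583). Rc3h1 (ENSMUSG00000040423.10; chromosome 1, 160906418 to 160974978, plus strand) had 5.35, 4.88 and 5.25 TPM, a mean of 5.16 ± 0.248 TPM. It was the lowest and, in TPM, the least variable of the 10. Its paralogue Rc3h2 had 6.61, 4.85 and 6.73 TPM, and the log2 ratio of Rc3h1 over Rc3h2 averaged -0.22 ± 0.20, above 0 in 1 of 3 libraries (exact sign-flip p = 0.5, adjusted p = 0.583).

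The scaffold of deadenylation and the decapping enzyme were at middle levels. Cnot1 (ENSMUSG00000036550.16; chromosome 8, 95719451 to 95807464, minus strand) had 19.1, 16.1 and 23.2 TPM, a mean of 19.5 ± 3.58 TPM (SD, n = 3). Dcp2 (ENSMUSG00000024472.9; chromosome 18, 44380502 to 44424969, plus strand) had 19.5, 14.4 and 15.1 TPM, a mean of 16.3 ± 2.76 TPM. Replicate 3 was highest for Cnot1 and replicate 1 for Dcp2, and both were lowest in replicate 2.

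Ordered by mean TPM, the regulators ran Zfp36, Zfp36l1, Zfp36l2, Elavl1, Cnot1, Khsrp, Dcp2, Zc3h12a, Zc3h12c and Rc3h1. Neighbours were called apart where their ratio had 1 sign in all 3 libraries and its mean exceeded its SD, and this held for 3 of the 9 neighbouring pairs. The log2 ratio of Zfp36l2 over Elavl1 was 0.80 ± 0.28, that of Dcp2 over Zc3h12a 1.01 ± 0.16 and that of Zc3h12c over Rc3h1 0.39 ± 0.30. The other 6 pairs did not differ beyond their spread. In the read-derived table Zfp36l1 stood above Zfp36, and Zc3h12c and Rc3h1 were not apart. Zfp36 and Zfp36l2, neighbours only in that table, were apart there. By the same rule they were also apart in deposited TPM, at a log2 ratio of 0.20 ± 0.078.

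The 3 libraries held 28981187, 53119939 and 46783108 rounded counts on genes, of which the 10 regulators took 0.130%, 0.121% and 0.124%. Protein-coding genes took 91.1%, 87.3% and 88.5% of these counts. Their share was 31.0%, 27.2% and 31.6% of the deposited TPM, and 14.4%, 12.2% and 8.71% of the read-derived TPM. Every TPM given here thus also depends on what all other genes of a library took. Rescaled to protein-coding genes, the regulators were lowest in replicate 2 for 5 genes, in replicate 3 for 4 and in replicate 1 for 1, against 7, 2 and 1 by TPM as deposited. Replicate 3 stood apart in nuclear-retained RNAs, with Malat1 at 158, 91.1 and 1343 TPM in the 3 libraries and Neat1 at 16.8, 10.4 and 91.4 TPM. Of the 8 macrophage markers 8 reached 10 TPM in every library, with Lyz2, Adgre1 and Cd68 at 3326 ± 193, 753 ± 152 and 610 ± 22.1 TPM. Markers of neutrophils, lymphocytes, stromal and other cells numbered 16, of which 2 reached 1 TPM, S100a9 at 4.54 ± 1.70 and S100a8 at 2.96 ± 0.813 TPM, and Hbb-bs had 0 expected counts in all 3 libraries. The summed TPM of those 16 was 5.69, 9.19 and 9.82.

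Between libraries, the regulators varied about as much as other protein-coding genes. Counts were scaled with TMM, which sets most genes equal across libraries, and expressed as counts per library total (CPM), and a chi-square test of homogeneity was run over 13636 genes. None of the 10 regulators reached the call of an adjusted p under 0.05 with a highest-to-lowest ratio of at least 2, against 16.2% of all genes and 8.12% of the 11540 protein-coding genes tested. The number was also 0 with DESeq2 size factors, while all 10 had an unadjusted and an adjusted p under 0.05 at any ratio, as 8761 protein-coding genes did, since this test counts only sampling error. The median ratio of highest to lowest library was 1.26 for the regulators and 1.27 for the protein-coding genes, and the median coefficient of variation was 12.0% and 12.4%. The genes tested had means down to 10 counts and were not matched to the regulators' counts. At a mean of 50 or more counts, 777 of 11087 genes were called, against 2203 of 13636, and again 0 regulators.

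Zc3h12c had the widest spread of the 10 on the TMM-scaled CPM, though not by TPM, where Zfp36l1 had a coefficient of variation of 21.9% and Zc3h12c one of 17.7%. Its TMM-scaled level was 83.9, 91.0 and 51.7 CPM in replicates 1, 2 and 3, a ratio of 1.76 between the highest and the lowest library (adjusted p = 5.9e-122, chi-square test with Benjamini-Hochberg adjustment over all genes). At a ratio of at least 1.5 it was the 1 regulator called, where 27.2% of all genes and 19.7% of protein-coding genes were. Without replicate 3 its ratio was 1.10. Dcp2 came next, at 196, 155 and 134 CPM, a ratio of 1.46, and both genes were lowest in replicate 3. At the other end, Zfp36l2 had 192, 176 and 187 CPM and Cnot1 216, 196 and 199 CPM, ratios of 1.09 and 1.10. Replicate 3, the library with the most Malat1, was also the lowest for Elavl1 and Rc3h1. The part of nuclear-retained RNA in these differences was not tested.

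**Figure D3:**
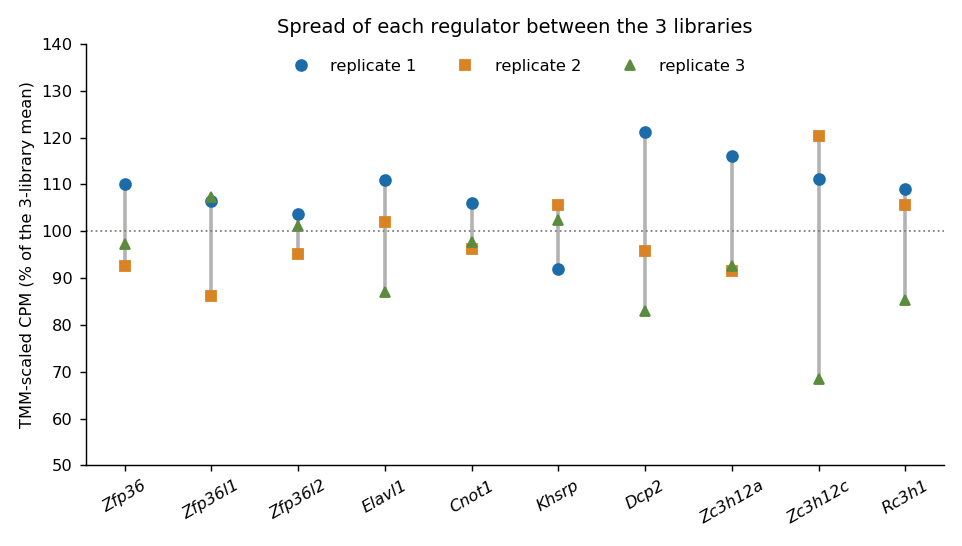
TMM-scaled CPM of each regulator in each library, as a percentage of its mean over the 3 libraries (vertical axis, starting at 50%). Zc3h12c spans the widest range and its replicate 3 lies lowest, while Zfp36l2 and Cnot1 lie within a narrow band.

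Each regulator kept its leading annotated transcript from library to library. That transcript was the same in all 3 libraries and in both kinds of transcript table for 10 of the 10 regulators, as for 82.2% of expressed protein-coding genes and 80.9% of those with more than 1 transcript. Zfp36l2 has 1 annotated transcript, and Zfp36l1-201, Zc3h12a-201 and Zc3h12c-202 held 99.9 ± 0.14%, 99.4 ± 0.56% and 99.9 ± 0.23% of the TPM of their genes (SD, n = 3). Khsrp-201 held 97.5 ± 1.07% and Rc3h1-202, an 11006-base transcript with a 3′ UTR of 7181 bases, 96.8 ± 3.51%. In the read-derived table the share of Rc3h1-202 was 76.2%, 67.6% and 61.8%, and the 3476-base Rc3h1-201, whose annotated 3′ UTR is 20 bases, held most of the rest.

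Zfp36 divided its deposited TPM between a pair of protein-coding transcripts. Zfp36-201 held 61.6%, 66.7% and 54.6% of its TPM in replicates 1, 2 and 3, and Zfp36-202 held the remainder. The 2 transcripts have 2 exons and 1 exon, 957 and 921 coding bases, and 3′ UTRs of 774 and 767 bases. Their deposited levels were 23.5 ± 1.96 and 15.4 ± 4.49 TPM (SD, n = 3). The read-derived table gave Zfp36-201 more, at 78.1%, 85.3% and 67.2%, so the size of the split depended on the quantification, with replicate 3 lowest for Zfp36-201 in both.

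Short annotated transcripts took a much larger share of TPM than of reads in Elavl1 and Dcp2. Elavl1-204 held 72.6%, 75.7% and 74.4% of the Elavl1 TPM. Elavl1-203, a retained-intron transcript of 613 bases, held 23.5%, 19.0% and 16.6% of the TPM but 4.75%, 3.81% and 3.04% of the expected counts. Elavl1-201, the 5743-base transcript with the nonamers shown above, held 3.82%, 5.28% and 8.09% of the TPM and 11.6%, 14.9% and 21.1% of the counts, in each case most in replicate 3. Dcp2-201, of 8616 bases, held 69.1%, 69.3% and 72.6% of the Dcp2 TPM but 99.2%, 99.1% and 99.2% of the counts. The rest went to the 398-base Dcp2-202. In the read-derived table Dcp2-201 held 63.5%, 60.5% and 62.3% of the TPM, a lower share than Zfp36-201 had there.

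Cnot1 has 17 annotated transcripts and was the most divided of the 10. Cnot1-202 held 54.6%, 57.8% and 47.5% of its TPM, and Cnot1-203, which has 7107 coding bases against 7128, 19.7%, 18.2% and 15.9%. Transcripts that are not protein-coding took 13.0%, 15.4% and 27.5% of the TPM of Cnot1 in replicates 1, 2 and 3. Of this, Cnot1-212, annotated as subject to nonsense-mediated decay, had 8.86%, 12.0% and 13.5%, but the read-derived table gave it 0 in every library and gave Cnot1-216, of the same class, 15.7%, 22.5% and 19.6%. Retained-intron transcripts of Cnot1 held 1.31%, 0.872% and 5.90%. Replicate 3, with the highest Malat1, had the most, and over all expressed protein-coding genes retained introns likewise held 2.81%, 2.94% and 4.46% of the TPM. Over the 10 regulators together they held 2.67%, 2.06% and 2.28%, most in replicate 1. In Elavl1 they held 23.6%, 19.0% and 17.5%. Khsrp and Rc3h1 had most of theirs in replicate 3, whereas Elavl1 and Zc3h12a had least there. The part of nuclear RNA in these differences was not tested.

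Over the 10 regulators together, transcripts that are not protein-coding held 3.72%, 3.39% and 4.52% of the TPM, a mean of 3.88 ± 0.580% (SD, n = 3). Over all expressed protein-coding genes the share was 7.26 ± 1.07%. The size of this gap depended on the measure. The shares were 5.58 ± 1.42% and 8.63 ± 1.90% of read-derived TPM, 1.16 ± 0.521% and 3.87 ± 0.833% of expected counts, and 4.41 ± 1.28% and 4.48 ± 1.24% of read-derived counts, for the regulators and all expressed protein-coding genes in each case. Counting protein-coding transcripts alone, the levels were 15.5 ± 1.46 TPM for Elavl1, 15.7 ± 1.81 TPM for Cnot1, 16.3 ± 2.75 TPM for Dcp2 and 18.5 ± 2.65 TPM for Khsrp. These 4 genes thus changed places in the order, within the spread already described. The Dcp2 value still includes the 398-base Dcp2-202, which is annotated as protein-coding. Dcp2-201 alone had 11.5 ± 1.79 TPM, and 9.99 TPM in replicate 2, below the threshold of 10 TPM that the gene passed.

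**Figure D4:**
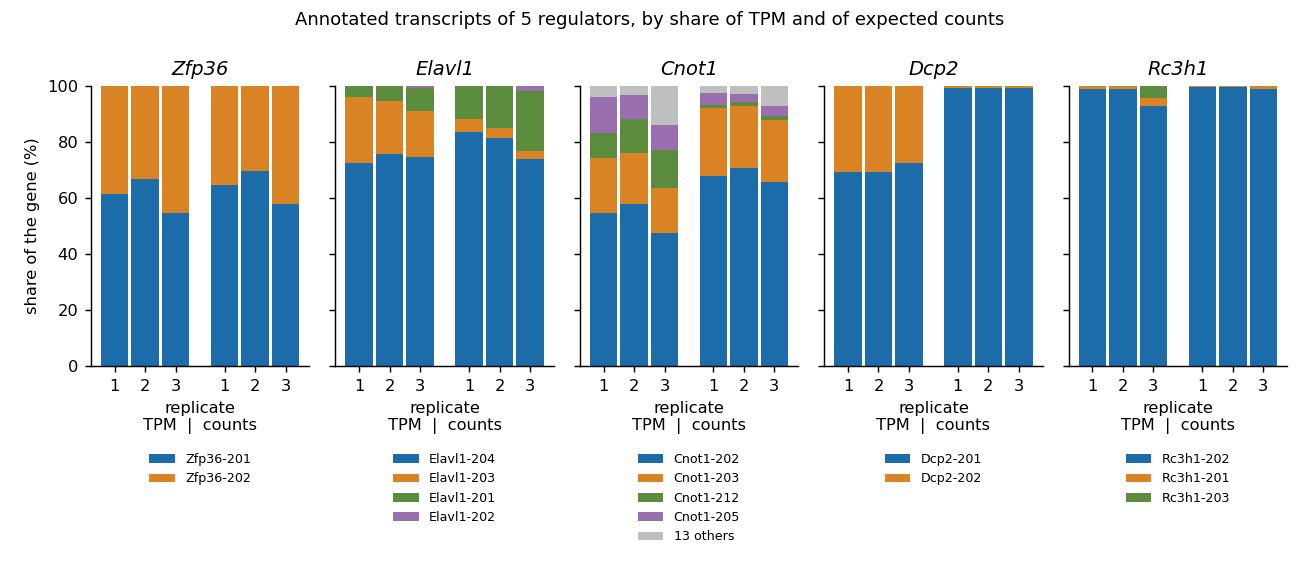
Share of each annotated transcript in its gene (vertical axis, %), by TPM (left 3 bars) and by expected counts (right 3 bars) in replicates 1, 2 and 3. Elavl1-203 and Dcp2-202, both short, take a visible share of TPM and little of the counts, and the share of Cnot1-202 is lowest in replicate 3.

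The close relatives of the regulators were either expressed, at means from 5.64 to 18.7 TPM, or nearly absent. Of 9 paralogues, 4 (44.4%) reached 1 TPM in every library, near the 41.2% of all protein-coding genes that did. Fubp1, of the family of Khsrp, had 18.7 ± 2.19 TPM, Zc3h12d, a further Regnase gene, 13.6 ± 3.06 TPM, Rc3h2 6.06 ± 1.05 TPM and Fubp3 5.64 ± 0.427 TPM (SD, n = 3). Zc3h12d thus exceeded Zc3h12a in TPM in 3 of 3 libraries, with 14.8, 10.2 and 16.0 TPM. The neuronal relatives of Elavl1 were at or near 0, Elavl2 whose 0 expected counts leave room for at most 0.104, 0.0565 and 0.0641 CPM in replicates 1, 2 and 3.

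The decay machinery on which the regulators call was broadly detected, at levels below theirs in the median. Of the 17 deadenylases and adaptors 16 passed 1 TPM in each library, as did 41.2% of all protein-coding genes. Their list had a median of 9.64 ± 0.719 TPM (SD, n = 3), against 8.70 ± 0.833 TPM over expressed protein-coding genes. Pan3, Cnot6l and Btg1 were highest, at 16.0 ± 4.17, 14.9 ± 0.954 and 13.7 ± 0.832 TPM, and Tob1 and Pan2 lowest, at 2.80 ± 0.576 and 1.08 ± 0.433 TPM. Over all its transcripts, Cnot1 thus had a higher mean TPM than each of these 17 genes. Its protein-coding transcripts alone had 15.7 ± 1.81 TPM, slightly below the gene level of Pan3. All 18 decapping and 5′ to 3′ decay genes reached 1 TPM, with a median of 6.23 ± 1.08 TPM. The decapping partners Lsm14a and Ddx6 led at 32.8 ± 3.47 and 32.7 ± 2.36 TPM, followed by Lsm7 at 17.9 ± 2.95 TPM, and Edc3 and Dcp1b were lowest at 2.55 ± 0.231 and 2.10 ± 0.324 TPM. Of the 17 genes of the exosome and 3′ to 5′ decay, 16 reached 1 TPM, with a median of 5.96 ± 0.282 TPM. Wdr61 and Exosc10 had 12.2 ± 0.712 and 12.0 ± 1.45 TPM, and Exosc6 had 0 expected counts. The other listed Exosc genes all reached 1 TPM in every library, and why Exosc6 had no counts was not tested.

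Other binders of cytokine mRNA had a median close to that of the regulators, and a few of them stood above Zfp36. All 17 were above 1 TPM in every library, as were 41.2% of all protein-coding genes, with a median of 17.2 ± 1.89 TPM (SD, n = 3). The poly(C)-binding gene Pcbp2 had 166 ± 12.1 TPM, the cold-shock gene Ybx1 117 ± 6.44 TPM and Pcbp1 55.4 ± 3.22 TPM. These 3 were the highest of the list and not the only ones above Zfp36. Tia1 was lowest at 3.96 ± 2.31 TPM, and it stood highest in replicate 3. Among 16 genes that control the regulators by phosphorylation or turnover, 15 reached 1 TPM in every library, against the same 41.2%. That list had a median of 14.1 ± 1.21 TPM. Ywhaz, which encodes a 14-3-3 protein, had 96.6 ± 9.91 TPM, the phosphatase scaffold gene Ppp2r1a 72.2 ± 9.22 TPM and Mapkapk2, the kinase known to phosphorylate tristetraprolin, 68.5 ± 2.16 TPM. Btrc had 3.40 ± 0.690 TPM and Map2k6 0.720 ± 0.220 TPM.

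The listed target mRNAs spanned a much wider range than the regulators themselves, though their lists also hold more genes. No action of the regulators on these mRNAs was measured here. Of 24 AU-rich cytokine and mediator mRNAs, 15 (62.5%) reached 1 TPM in every library, as did 41.2% of all protein-coding genes. Their median was 3.08 ± 0.415 TPM (SD, n = 3). The chemokine genes Ccl3, Ccl4 and Ccl2 had 198 ± 44.2, 178 ± 57.9 and 107 ± 30.8 TPM, and Lif and Ifng had 0.010 ± 0.010 and 0.030 ± 0.030 TPM. Of 17 mRNAs reported as targets of Regnase or Roquin, which include Zc3h12a itself, 9 (52.9%) reached 1 TPM, with a median of 1.37 ± 0.290 TPM. Tnf had 64.0, 75.1 and 47.8 TPM, a mean of 62.3 ± 13.7 TPM, above each of the 10 regulators in every library. The iron-uptake receptor gene Tfrc had 56.5 ± 16.6 TPM and Lcn2 21.1 ± 11.7 TPM, while Il2 and Ctla4, genes of T cells, had 0 expected counts. The summed TPM of the AU-rich list was 748, 650 and 485 in replicates 1, 2 and 3, and that of the 10 regulators 212, 175 and 224.

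**Figure D5:**
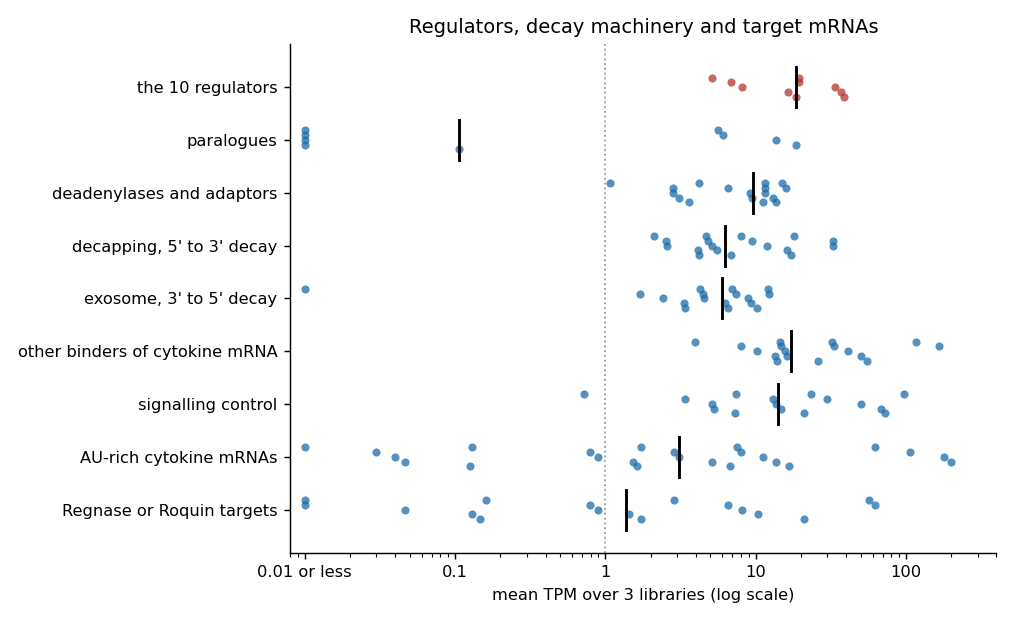
Mean TPM over the 3 libraries (log scale, values of 0.01 or less drawn at 0.01) of the 10 regulators in red and of the genes of 8 lists in blue, with black bars at the list medians. The regulators span 5.16 to 39.0 TPM, while the AU-rich cytokine mRNAs span 0.010 to 198 TPM.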

How the data were processed

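Total RNA-seq libraries from 1 group of 3 cytosolic samples were analysed. Per the deposited README, gene and transcript tables came from alignments to mm10 with annotation M21, and another transcript table came directly from the reads. Neither an aligner nor a quantifier or strand setting is given in the sources used. As deposited, expected counts are estimates in which reads matching several rows are split. TPM, as deposited, is scaled to transcript length and to the total over all rows, and the authors' FPKM column, per the file headers, to length and library total. The deposited percent of each transcript in its gene was not used, and shares were recomputed from TPM. Around each deposited TPM the authors give bounds of unstated level, and their width was at most 5.23% (Zfp36l2) to 21.0% (Dcp2) of the TPM.

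Levels are deposited TPM, as mean ± SD over libraries. The 26345 rows that name no gene held 0.418%, 0.248% and 0.165% of expected counts and were left out. Rounded counts were given TMM library sizes by edgeR 4.0.16 under R 4.3.3. Genes with a mean of 10 or more counts entered a chi-square test of homogeneity, with 0.5 counts added for ratios. A count of 0 allows 3 counts of a library's total, and such limits cover counting error only. The chi-square p-values likewise cover counting error only, while the sign-flip p-values cover the spread among these 3 libraries alone. The labels do not say that the libraries came from separate animals, so that spread may be technical.

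Nonamers (TTATTTATT), heptamers (TATTTAT) and pentamers (ATTTA) were searched on the transcribed strand of GENCODE M21 transcript sequences, in place of a genome, with overlaps allowed. The longest annotated 3′ UTR of a gene gave lengths and densities. Of 156 other listed symbols, all were found. Tables were handled in pandas 2.3.3 and numpy 2.4.6 under Python 3.11.15, tests run in scipy 1.17.1 and plots drawn in matplotlib 3.10.9.

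The members, lists, motifs and tests were chosen with earlier results of these data known. Named were the 10 regulators, the 3 highest and 2 lowest genes of each other list by mean TPM (any gene of a list of up to 9), Rc3h2, Malat1, and leading and next transcripts. Some genes that this rule takes are not reported here. Ccl25, Hbb-bs and further transcripts of Elavl1, Rc3h1 and Cnot1 were named after their values were seen. Alternatives were other thresholds, read-derived TPM, TPM rescaled to protein-coding genes, FPKM, posterior mean TPM, a pseudocount, other count filters, size factors from DESeq2 1.42.0 and each library left out. Read-derived TPM rescaled to protein-coding genes was chosen after seeing the data.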

Additional observations from a re-analysis of the deposited data

How the results depend on the processing

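Of 154 values recomputed under alternatives, 137 held. Counts of genes held within 1.5 times the reported one, levels and shares within 1 SD over libraries, and ratios by their sign alone, whatever their size. Some of the 137 were bound to hold or nearly so. Within a library FPKM is proportional to TPM, so ratios in FPKM repeat those in TPM. Leaving a library out can only keep or raise a count of genes passing in every library. The number of regulators at the threshold was 3 at 20 TPM and 3 with read-derived TPM, but 8 with FPKM and 10 with TPM rescaled to protein-coding genes, in place of 7 at 10 TPM. Their median, 18.7 TPM as reported, was 7.27 with read-derived TPM, 62.4 when rescaled to protein-coding genes, 30.9 in FPKM and 62.0 with rescaled read-derived TPM, the last chosen after seeing the data. The number differing between libraries was 1 at a ratio of at least 1.5, in place of 0 at 2. The log2 ratio of Zfp36 over Zfp36l1 was -0.074 with read-derived TPM, in place of 0.093, and that of Elavl1 over Khsrp ranged from -0.13 to 0.24 with a replicate left out. The cause was not tested. The share of the regulators' TPM on transcripts that are not protein-coding, 3.88% as reported, was 5.58% with read-derived TPM and 1.16% of expected counts. All 10 regulators held the pentamer, in place of 5 with the nonamer. At 5 TPM the lists held 10 decapping, 9 exosome and 8 AU-rich genes and 0 markers of other cell types, and with read-derived TPM 1 such marker. No paired analysis was possible because the series holds 1 group. Depth did not limit the regulators, the lowest of which, Zc3h12a, had 1092 expected counts in replicate 1, but 3 libraries allow no ratio test to reach 0.05.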

Other observations

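Genes that share bases with the regulators, Ccl25 apart, were listed below 1 TPM in every library. The antisense gene Gm44710, which overlaps 1274 bases of Zfp36, had 0.56, 0.50 and 0.29 TPM in replicates 1, 2 and 3. Gm26669, a non-coding gene on the strand opposite to Zfp36l1 that covers 4967 bases of it, had 0.47, 0.04 and 0.50 TPM. Some same-strand genes within Rc3h1 and Cnot1 had few counts in replicates 1 and 2 and more in replicate 3, while the small RNA genes Gm26265, Gm26493 and Mir7073 within Cnot1 had 0 in all 3. Gm37052 and Gm37653, within Rc3h1, had 1, 1 and 45 counts and 3, 6 and 99 counts, and Gm45762, within Cnot1, had 1, 2 and 41 counts. These genes were chosen after their values were seen, and replicate 3 is the library with the most Malat1.

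Among the listed target mRNAs other than the regulators, 13 of 34 held the nonamer in an annotated 3′ UTR, against 8.73% of expressed protein-coding genes. Many of the 34 were listed as AU-rich, so their motif counts follow in part from that choice. The 34 also include Il2 and Ctla4, which had 0 expected counts, while the 8.73% covers expressed genes only. Over the 34, the median 3′ UTR length was 679.5 bases, with a median of 5.76 pentamers per 1000 bases. Tnf had 5 nonamers and 8 pentamers in 764 bases. Ccl3, the most abundant of the AU-rich list, had 0 nonamers and 5 pentamers in 409 bases, and Lif, the least abundant, 2 nonamers and 7 pentamers in 3180 bases.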
